A study of Rattus norvegicus with 12 samples.

Results

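Cell division in the small intestine was followed through 44 genes of the cell cycle and of DNA replication. This list of cyclins, mitotic kinases, spindle proteins, replication factors and nucleotide enzymes was chosen by gene function, with earlier results of these data known. The members were read from every probe set that the platform annotation gives to 1 such gene and whose mean scaled signal over the arrays was at least 100. By that rule 40 of the 44 genes were measured, on 55 probe sets, out of 10067 named genes and 17694 probe sets tested. Tyms was measured only below the minimum, at a mean signal of 92.7, and the member just above it was Ccne1, at 122.7. Tpx2 and Cdc6 were on no probe set with a gene name of their own, and Rrm2 was only on probe sets shared by several genes, so no value is given for them. The minimum was set on the mean of all 12 arrays, so a gene high in 1 group could pass through that group. Where a gene had several probe sets the brightest stands for it, which applied to 11 members.

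RNA came from scraped mucosa of 2 segments of the small intestine, duodenum and jejunum, in Belgrade rats. A recessive allele of Slc11a2, which encodes DMT1, the iron transporter of enterocytes and red cell precursors, defines the strain, and homozygotes (b/b) are known to be anaemic. Heterozygotes (+/b, written +b in the labels of the duodenum), which carry 1 copy of the same allele, were the comparison, so no rat was free of the mutation. The labels give no age, sex or diet. The 4 groups were +/b duodenum, b/b duodenum, +/b jejunum and b/b jejunum, each with 3 arrays. The design text describes 3 groups of rats per genotype, each hybridised to 1 array per segment, so a replicate is a group of rats and the number of rats in it is not given in the sources used here. The labels do not say which arrays share a group of rats. Equal replicate numbers within a genotype are taken here to mark the same group, an inference on which every paired or blocked value rests. They do not pair rats of different genotypes.

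Dividing cells of the intestinal epithelium are known to lie in the crypts, and their daughters stop dividing as they move onto the villi. In G1, D-type and E-type cyclins release E2F factors, which switch on the genes of the MCM helicase, the sliding clamp and nucleotide synthesis. Later, cyclin A and cyclin B with Cdk1 drive mitosis, and the anaphase-promoting complex, with Cdc20 and Ube2c, ends it by marking cyclins for destruction.

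The deposited signals were on a common scale for 10 arrays, whereas +/b duodenum replicates 2 and 3 were not scaled, with 2% trimmed means of 51.6 and 126.6 against 500.2. All arrays were therefore set to 500, for which the factors of those 2 were 9.69 and 3.95. The median signal then lay between 108.5 and 181.5, and the 3′/5′ signal ratio of GAPDH, a measure of RNA integrity, between 1.04 and 1.43. The same ratio of actin was 1.33 to 1.61 on b/b jejunum arrays, below all others (1.66 to 2.96), and its part in the differences was not tested. Exocrine pancreas genes summed to 194632 on +/b duodenum replicate 2 and to 9291 on b/b duodenum replicate 3, against 1256 to 2300 on the other arrays. The members' medians and counts, and the values they move most, are also given without these arrays.

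The jejunum had the higher values for 38 of the 40 measured genes in each genotype, and b/b rats had the lower values for 34 genes in the duodenum and for all 40 in the jejunum. Among all probe sets tested, 56.6% were higher in the jejunum of +/b rats, 58.1% were higher in that of b/b rats, 55.5% were lower in b/b duodenum and 54.5% were lower in b/b jejunum. The members' median log2 difference between segments was 0.48 in +/b and 0.53 in b/b rats, beside 0.05 and 0.07 over all probe sets. Their median difference between genotypes was -0.38 in the duodenum and -0.30 in the jejunum, beside -0.05 and -0.03. For single genes the test gave few calls at an adjusted p of 0.05. Between the segments over both genotypes 1 member passed, against 1.4% of probe sets in either direction (0.61% higher). None did between the genotypes over both segments, where 0.0565% of probe sets passed in either direction. The 11 measured markers of crypt stem and progenitor cells had medians of the same signs, 0.57 between the segments and -0.53 between the genotypes, each averaged over the other factor. Within a scrape, fewer dividing cells and less of these transcripts per cell cannot be told apart.

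Averaged over the 40 genes, +/b duodenum arrays lay at 0.25, -0.44 and -0.13 on the log2 scale relative to each gene's mean. The b/b duodenum arrays lay at -0.26, -0.67 and -0.38, the +/b jejunum arrays at 0.36, 0.17 and 0.80, and the b/b jejunum arrays at -0.17, 0.10 and 0.37. The +/b jejunum arrays were all above the mean and the b/b duodenum arrays all below it, but +/b duodenum replicate 1 lay above 2 of the 3 b/b jejunum arrays. Within the jejunum, replicate 3 of each genotype had the highest level.

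**Figure D1:**
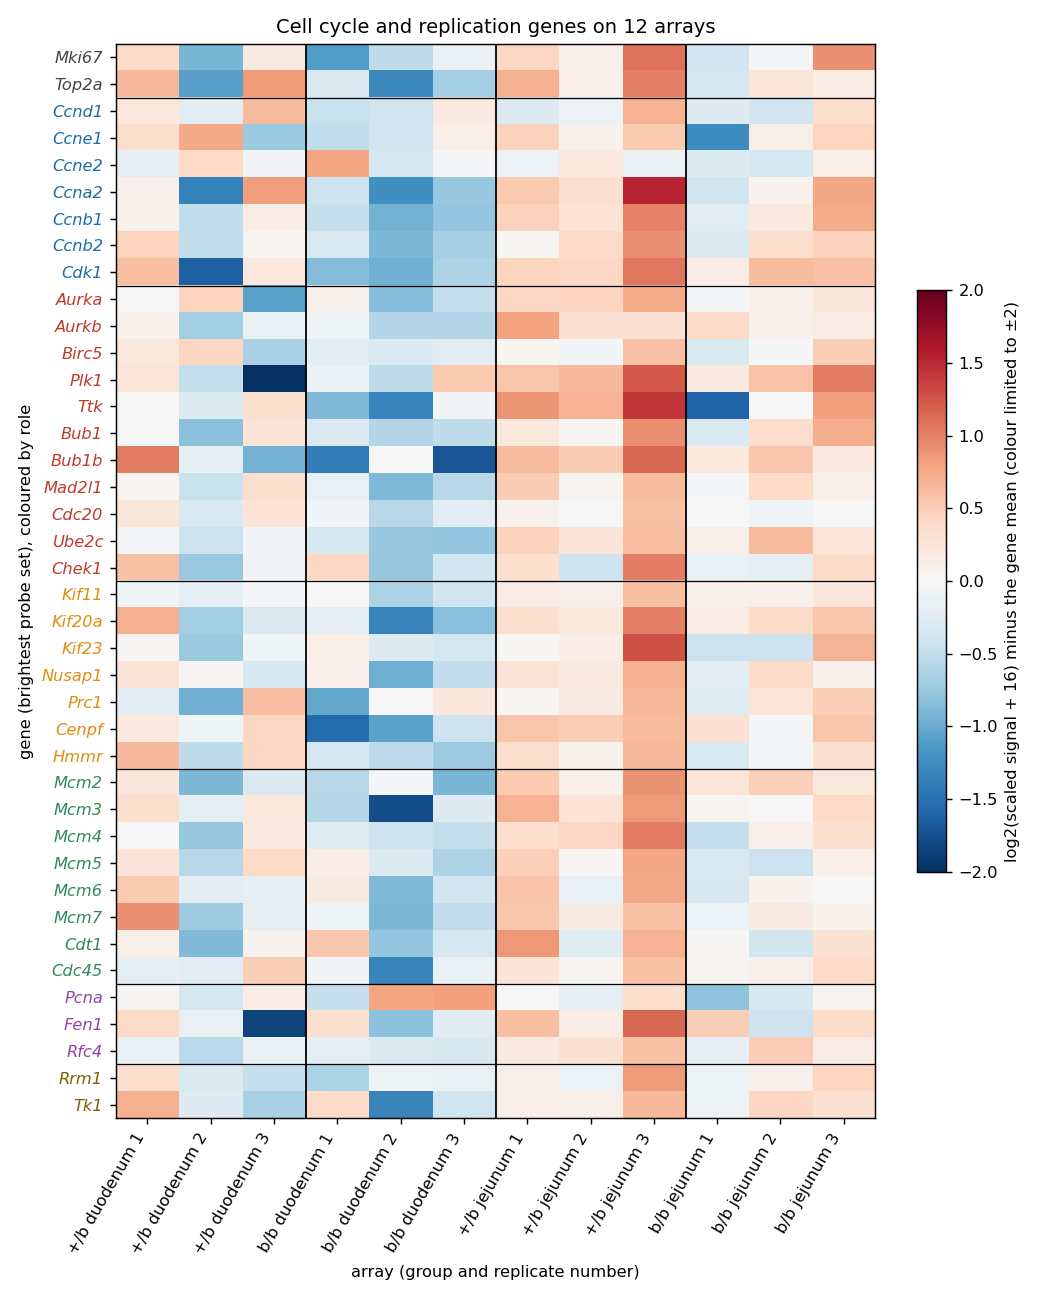
Scaled log2 signal of the 40 measured genes (rows, by role) on the 12 arrays (columns, by group), each minus the gene's mean over all arrays, with colour limited at 2 in either direction. The members' averages run from -0.67 on b/b duodenum replicate 2 to 0.80 on +/b jejunum replicate 3.

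Promoter letters were read because the members were higher or lower together. Cell cycle promoters are known for CCAAT boxes, bound by NF-Y, for the cell cycle homology region, whose core letters are TTTGAA, and for E2F sites, searched here as TTTCCCGC, TTTGGCGC or TTTCGCGC. Each was searched on both strands from 250 bases before to 50 bases after the gene start in RefSeq sequence of the build GRCr8, which held 34 of the 40 measured genes. CCAAT was in 23 of the 34 promoters (67.6%), against 37.5% of the promoters of 9332 genes tested and 37.5% of all 33469 promoters of the table. TTTGAA was in 16 (47.1%), against 12.0% and 18.3%, and E2F letters were in 8 (23.5%), against 3.41% and 1.72%. Both CCAAT and TTTGAA were in 13 promoters (38.2%), against 4.96% and 7.41%. TATAAA was in 1 member promoter (2.94%), against 7.12% and 14.2%. These shares describe letters and carry no test.

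TTTGAA and the E2F letters went largely by the members' roles, and CCAAT did not. In 19 promoters of kinase, checkpoint, spindle, cytokinesis, mitotic cyclin and Cdk1 genes, TTTGAA was in 13, E2F letters in 2 and CCAAT in 14. All 5 Mcm promoters found held E2F letters, 4 held CCAAT and 1, that of Mcm2, held TTTGAA. The promoters of 3 mitotic genes (Ccnb2 of cyclin B2, Cenpf of a kinetochore protein and Top2a of the topoisomerase that untangles sister DNA) are shown with those of 3 helicase subunits (Mcm3, Mcm5 and Mcm6), because TTTGAA and E2F letters divide them. Top2a was grouped with Mki67 and is not among the 19. The sequences run 5′ to 3′ on the strand of the gene, and the annotated start is base 251. Capitals mark the letters searched, CCAAT first, then the cell cycle homology letters and the E2F letters, or the reverse complement of each. Overlapping E2F matches of opposite strands form 1 run of capitals in Mcm5 and in Mcm6.
Ccnb2: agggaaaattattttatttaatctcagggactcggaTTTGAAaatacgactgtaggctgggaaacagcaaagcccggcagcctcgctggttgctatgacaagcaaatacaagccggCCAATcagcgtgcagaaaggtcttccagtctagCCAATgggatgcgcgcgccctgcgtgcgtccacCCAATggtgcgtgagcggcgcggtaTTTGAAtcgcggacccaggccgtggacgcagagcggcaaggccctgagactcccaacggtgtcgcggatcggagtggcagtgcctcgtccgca
Cenpf: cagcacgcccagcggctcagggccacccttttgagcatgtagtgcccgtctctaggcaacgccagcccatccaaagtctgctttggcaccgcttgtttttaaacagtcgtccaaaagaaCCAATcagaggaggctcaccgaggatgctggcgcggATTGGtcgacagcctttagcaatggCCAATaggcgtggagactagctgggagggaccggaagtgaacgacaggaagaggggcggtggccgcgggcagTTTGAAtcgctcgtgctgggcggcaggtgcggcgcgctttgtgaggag
Top2a: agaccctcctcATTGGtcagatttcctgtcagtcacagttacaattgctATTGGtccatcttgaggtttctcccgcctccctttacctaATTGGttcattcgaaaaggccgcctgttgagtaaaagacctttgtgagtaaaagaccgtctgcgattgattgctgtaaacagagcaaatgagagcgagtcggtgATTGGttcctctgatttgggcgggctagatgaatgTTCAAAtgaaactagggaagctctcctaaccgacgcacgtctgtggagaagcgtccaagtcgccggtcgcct
Mcm3: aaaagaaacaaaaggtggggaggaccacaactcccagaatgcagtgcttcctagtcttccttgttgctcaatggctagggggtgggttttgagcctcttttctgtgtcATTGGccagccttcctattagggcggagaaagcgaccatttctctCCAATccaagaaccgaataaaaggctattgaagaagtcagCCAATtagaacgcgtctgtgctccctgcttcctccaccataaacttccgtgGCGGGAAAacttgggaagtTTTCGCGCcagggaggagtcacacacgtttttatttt
Mcm5: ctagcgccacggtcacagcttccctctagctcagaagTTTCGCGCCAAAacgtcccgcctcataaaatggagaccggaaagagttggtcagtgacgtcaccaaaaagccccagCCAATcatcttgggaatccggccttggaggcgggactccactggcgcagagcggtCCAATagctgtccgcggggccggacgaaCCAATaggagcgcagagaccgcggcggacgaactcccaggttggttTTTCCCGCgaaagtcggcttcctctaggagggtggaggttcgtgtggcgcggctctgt
Mcm6: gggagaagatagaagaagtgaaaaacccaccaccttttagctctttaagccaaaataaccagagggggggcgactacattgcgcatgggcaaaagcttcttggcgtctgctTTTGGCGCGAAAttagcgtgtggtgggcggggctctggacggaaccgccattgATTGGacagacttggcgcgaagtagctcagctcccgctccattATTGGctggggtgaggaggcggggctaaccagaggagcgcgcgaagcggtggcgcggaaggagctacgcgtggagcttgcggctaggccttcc
They lie at chr8:79981609-79981908 (Ccnb2, minus strand), chr13:103760837-103761136 (Cenpf, minus), chr10:84473044-84473343 (Top2a, minus), chr9:30733697-30733996 (Mcm3, minus), chr19:13488563-13488862 (Mcm5, plus) and chr13:42404303-42404602 (Mcm6, minus) of GRCr8. Ccnb2 and Cenpf each hold 3 CCAAT boxes and Top2a holds 4, and all of them have TTTGAA or its complement, within 43 bases of the start. In Mcm3 and Mcm5 E2F letters also lie within 14 bases of the start, and in Mcm6 they begin 139 bases before it.

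The first base of a match lay at a median of -96 for CCAAT, over 55 matches in 23 genes. It lay at -32.5 for TTTGAA (20 matches in 16 genes) and at -28 for E2F letters (15 matches in 8 genes). The 12 genes with CCAAT and TTTGAA but no E2F letters had median genotype differences of -0.45 (duodenum) and -0.30 (jejunum). The 6 genes with E2F letters but no TTTGAA had -0.35 and -0.46, and the 12 with neither TTTGAA nor E2F letters had -0.26 and -0.17. Between the segments, averaged over the genotypes, the same sets had medians of 0.54, 0.38 and 0.52. No set stood apart by sign.

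**Figure D2:**
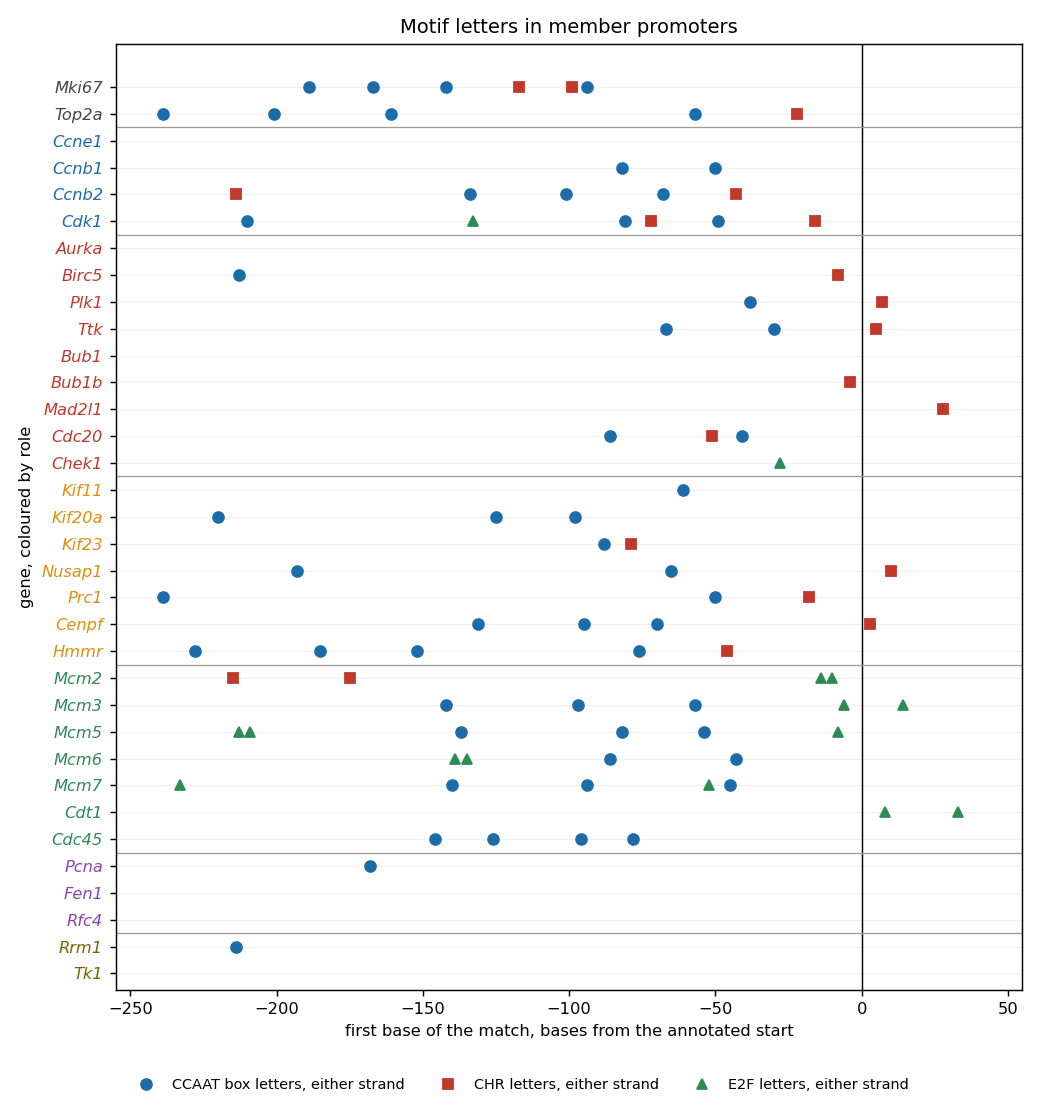
Position of CCAAT (blue circles), TTTGAA (red squares) and E2F letters (green triangles), on either strand, in bases from the annotated start for 34 measured genes, ordered by role. CCAAT lies mostly upstream of the start, with a median of -96, and the E2F triangles gather in the Mcm genes.

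Ube2c had the smallest p of all members between the segments over both genotypes. This gene, which encodes the conjugating enzyme of the anaphase-promoting complex, was 1.72-fold higher in the jejunum. Its signal was 590.0, 443 and 581 in +/b duodenum and 837, 724 and 932 in +/b jejunum, and 478, 350.1 and 344 in b/b duodenum against 663, 938 and 715 in b/b jejunum. Within each genotype no duodenal array reached a jejunal one. The log2 difference was 0.78 ± 0.15 SE (limma, Benjamini-Hochberg adjusted p = 0.0187), and Ube2c was the 1 of 40 members called higher, against 0.61% of probe sets (1.4% in either direction). The call was lost in 5 of the 12 fits that left out 1 array, namely +/b jejunum 1 or 3, b/b duodenum 2 or 3, or b/b jejunum 2, with differences from 0.71 to 0.78 there. Without both unscaled arrays the difference was 0.71 with an adjusted p of 0.117.

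When the fit took in the pairing of the segments through a block for each group of rats, 8 members passed, all higher in the jejunum, against 2.31% of probe sets (4.49% in either direction). They were Ube2c (limma adjusted p = 0.0109), Cenpf (0.0202), Mki67 (0.0203), Ccnb1 (0.0222), Cdk1 (0.0255), Mcm2 (0.0281), Aurkb (0.0326) and Ccna2 (0.0363). Their folds ran from 1.59 for Aurkb to 2.13 for Cdk1. In 6 of 6 groups of rats 15 members were higher in the jejunum, against 7.73% of probe sets: Mki67, Ccna2, Ccnb1, Aurkb, Plk1, Mad2l1, Ube2c, Kif11, Prc1, Cenpf, Mcm2, Mcm3, Cdc45, Fen1 and Rfc4. Without the block, 20 of 40 were higher at an unadjusted p under 0.05 (8.07%), and 38 of 40 were higher at all (59.8%).

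**Figure D3:**
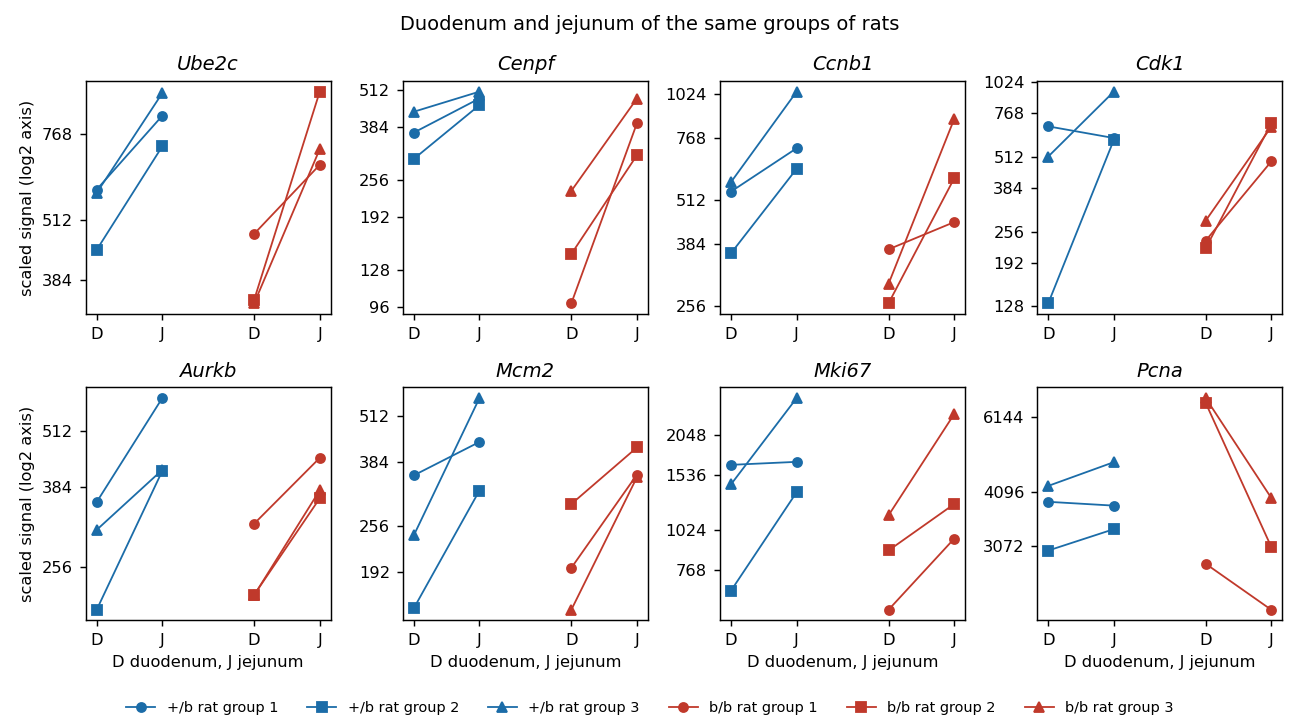
Scaled signal (log2 axis) of 8 genes in the duodenum and the jejunum, with a line for each of the 3 groups of rats per genotype. All 6 lines go up for Ube2c, Cenpf, Ccnb1, Aurkb, Mcm2 and Mki67, 5 of 6 go up for Cdk1, and the Pcna lines of b/b rats go down.

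The groups of rats did not contribute alike. The mean difference between jejunum and duodenum over the members was 0.11, 0.61 and 0.93 in +/b rat groups 1, 2 and 3, and 0.09, 0.78 and 0.75 in the b/b groups. Members higher in the jejunum numbered 26, 36 and 39 of 40 in the +/b groups and 23, 36 and 39 in the b/b groups. Rat group 1 thus had a small difference in both genotypes, although the numbers of the genotypes share no rats. Other signals also ran by number: villus enterocyte genes summed to 532705, 468846 and 313922 on replicates 1 to 3 of +/b duodenum. The sums were 716740, 306168 and 223119 in b/b duodenum and 479288, 357801 and 229426 in +/b jejunum. In b/b jejunum they were 563370, 340346 and 228793. Goblet cell sums fell in the same order in all 4 groups. Whether the rat group block takes in shared rats or this order by number was not tested.

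Among the proliferation marker, the cyclins and Cdk1, all but Ccne2 lay above 0 over both genotypes. Mki67, the gene of the Ki-67 antigen that marks cycling cells, had signals of 1649, 661 and 1431 in +/b duodenum and 1685, 1352 and 2679 in +/b jejunum. The b/b values were 575, 885 and 1142 against 964, 1239.6 and 2382. The segments overlapped in each genotype, while every group of rats had the higher value in the jejunum (0.70 ± 0.28, limma unadjusted p = 0.026). Ccnb1, cyclin B1, had 542, 362 and 577 against 719, 629 and 1042 in +/b rats and 371, 261 and 296 against 444, 590.2 and 869.8 in b/b rats. No duodenal array reached a jejunal one within either genotype (0.81 ± 0.20, limma adjusted p = 0.068). Cdk1, the kinase that cyclin B activates, had 677, 132 and 512 against 608, 597 and 933 in +/b rats, where the segments overlapped. Its b/b values were 235, 219 and 283 against 489, 696 and 675, which did not overlap, and the difference over both genotypes was 1.09 ± 0.31 (limma adjusted p = 0.119).

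Ccna2, cyclin A2 of S phase and G2, had 529, 185 and 899.7 in +/b duodenum and 722, 624 and 1463 in +/b jejunum, which overlapped. The b/b duodenal values of 369, 203 and 286 lay below 370.5, 520.0 and 860.4, by a narrow margin at the nearest pair. Ccnd1, the G1 cyclin D1 that growth signals induce, had 1265, 939 and 1698 against 902, 1004 and 1782 in +/b rats and 799.6, 819 and 1244 against 911, 829 and 1392 in b/b rats. Its difference over both genotypes was 0.01 on the log2 scale and the segments overlapped in both. Top2a had 1172, 340.1 and 1343 against 1219.7, 793 and 1504 in +/b rats and 605, 294 and 453 against 585, 881 and 820.3 in b/b rats, with overlap in both (0.62 over both genotypes).

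Mitotic kinases and checkpoint genes had a median segment difference of 0.65 over 11 genes. Aurkb, the kinase of the chromosomal passenger complex, had 356, 205 and 309 in +/b duodenum and 605, 417 and 419.5 in +/b jejunum. Those of b/b rats were 319, 221 and 221 against 446, 363 and 378, so the segments were separate in both genotypes (0.67 ± 0.19, limma adjusted p = 0.115). Plk1, a kinase of mitotic entry, had 346, 202 and 4.61 against 433, 463 and 698 in +/b rats, with a difference of 2.19 ± 0.75 there, and of 0.93 without the unscaled duodenal replicate 3. Its b/b values of 263, 197 and 422 overlapped with 331, 438 and 600.3, with a difference of 0.63. On their brightest probe sets Bub1b and Mad2l1, which delay anaphase until chromosomes are attached, were separate between the segments in b/b rats but overlapped in +/b rats. The dimmer Mad2l1 probe sets overlapped in b/b rats as well.

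Of the spindle and kinetochore genes, Cenpf had 368, 301 and 432 in +/b duodenum and 479, 455 and 505 in +/b jejunum. In b/b rats it had 98.9, 145 and 235 against 396, 309 and 479, with a difference of 1.28 ± 0.29 (limma adjusted p = 0.0693, and 0.0193 with the rat group block). The difference in +/b rats was 0.38 ± 0.29, and the segments did not overlap in either genotype. Kif20a, a kinesin of the central spindle, had 442, 155 and 212 against 335, 305 and 542 in +/b rats, which overlapped, and 231, 94.1 and 141 against 296, 343 and 391 in b/b rats, which did not. Its difference in b/b rats was 1.14 ± 0.39 (limma unadjusted p = 0.01).

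Replication genes lay above 0 between the segments as well, apart from Pcna. Mcm2, of the helicase that unwinds origins, had 352, 153 and 242 in +/b duodenum and 435, 320.4 and 573 in +/b jejunum, which overlapped. In b/b rats it had 197, 294 and 151 against 354, 420.1 and 348, which did not (0.81 ± 0.23 over both genotypes, limma adjusted p = 0.126). Rfc4, of the complex that loads the clamp, had 359.6, 268 and 362 against 457, 496 and 603 in +/b rats and 345, 323 and 314 against 354, 567 and 448 in b/b rats, without overlap in either. The median segment difference over both genotypes was 0.48 for 8 licensing and helicase genes, 0.54 for 3 clamp and lagging strand genes and 0.47 for 2 genes of nucleotide supply.

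Counted by non-overlap, 9 members lay wholly higher in the jejunum of +/b rats, against 6.1% of probe sets, and 16 in that of b/b rats, against 9.53%. Both counts held Ccnb1, Aurkb, Ube2c, Kif11, Cenpf and Rfc4. With a 3-array group in each segment no member was called in +/b rats (limma; 8 had an unadjusted p under 0.05, beside 3.29% of probe sets; 0.0565% called in either direction) and none with the block (0.486%). In b/b rats none was called (11 at an unadjusted p under 0.05, beside 6.26%; 0.763% called), while the block gave 3 calls (2.44%). These were Cenpf and Ube2c, higher in the jejunum (adjusted p = 0.0193 and 0.0336; 1.18% of probe sets called higher), and Pcna, lower (0.0287).

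**Figure D4:**
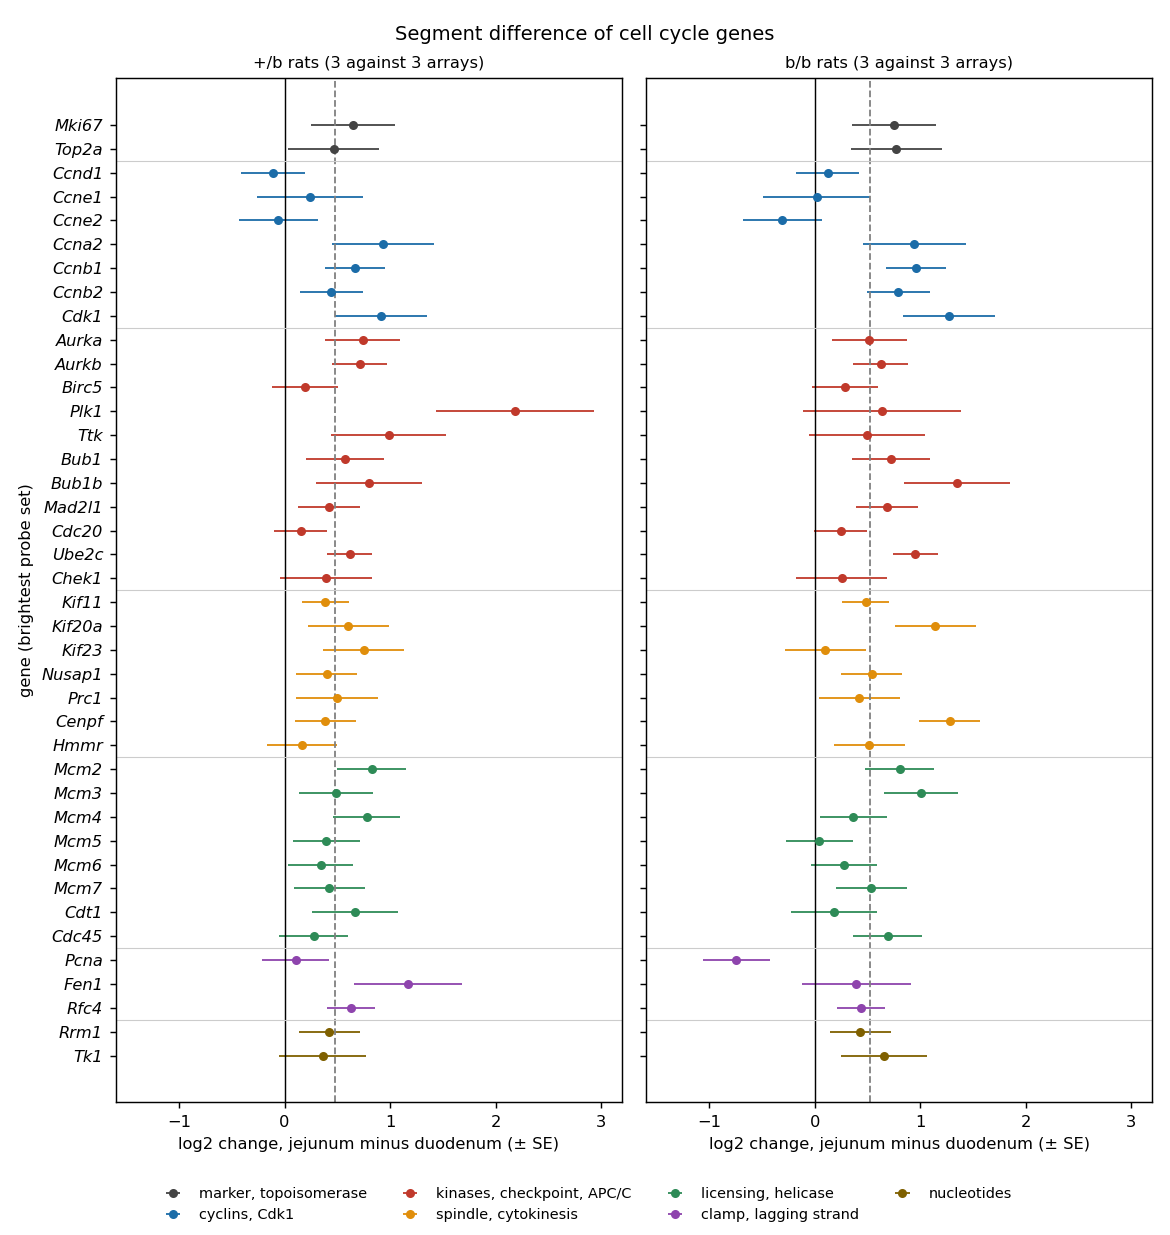
Log2 difference of jejunum minus duodenum with its SE for each measured gene, in +/b (left) and b/b rats (right), with the median of the members dashed at 0.48 and 0.53. In each panel 38 of 40 points lie above 0, and Plk1 in +/b rats has the largest value, 2.19.

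The segment difference in +/b rats depended on the arrays in doubt. Without +/b duodenum replicate 2, which was unscaled and carried the pancreas signal, the members' median was 0.30, and the differences were 0.24 for Cdk1 (0.92 with it), 0.25 for Mki67 (0.65) and -0.14 for Top2a (0.47). Without both unscaled arrays, which leaves 1 +/b duodenal array whose spread is taken from the other groups, it was 0.22, with 28 of 40 genes above 0. Without both arrays high in pancreas genes it was 0.30, with 36 above 0. The b/b difference uses none of the unscaled arrays.

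Between the genotypes Cenpf had the smallest duodenal p of all members and the difference furthest below 0. Its b/b arrays, at 98.9, 145 and 235, all lay below the +/b arrays, at 368, 301 and 432, with means of 159 ± 69.3 and 367 ± 65.9 (SD, n = 3). The log2 difference was -1.19 ± 0.29 with an unadjusted limma p of 0.0011, and the adjusted p over 17694 probe sets was 0.554. In the jejunum b/b Cenpf signals of 396, 309 and 479 overlapped with the 479, 455 and 505 of +/b rats (-0.29 ± 0.29). The difference between these genotype effects was 0.90 ± 0.41 (limma unadjusted p = 0.046), and no member passed an adjusted p of 0.05 for such a difference (0% of probe sets called).

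On the brightest probe sets, Mcm3 was the other member whose duodenal groups did not overlap. It had 346, 240.2 and 318 in +/b and 179, 68.3 and 225 in b/b rats (-0.99 ± 0.35, limma adjusted p = 0.776). Without b/b replicate 2, at 68.3, its difference was -0.53. Together Cenpf and Mcm3 made 2 of 40, against 5.53% of probe sets lower in b/b without overlap. No member was called in the duodenum (limma), where 0.0396% of probe sets were called in either direction. At an unadjusted p under 0.05 there were 3 members lower in b/b (3.67% of probe sets), namely Cenpf, Mcm3 and Ccnb1. Ccnb1 had a mean of 309 ± 56.4 in b/b and 493 ± 115 in +/b duodenum (SD, n = 3), with 1 b/b array, at 371, above the lowest +/b array, at 362. Its difference was -0.63 ± 0.28. Hmmr, a spindle protein that also binds hyaluronan, had 326, 138 and 273 in +/b and 157, 135 and 116 in b/b duodenum, with an overlap of 1 array (-0.71 ± 0.33).

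In the jejunum every measured gene had a difference below 0, and none passed the test. Ttk, the kinase that starts the spindle checkpoint, had the largest, with 257, 225 and 381 in +/b and 32.2, 134 and 246 in b/b rats (-1.26 ± 0.55, limma unadjusted p = 0.036). The groups overlapped, and without b/b replicate 1, the lowest array, the difference was -0.58. It was the 1 member with an unadjusted p under 0.05, against 0.712% of probe sets, and none was called (0.0339%). On the brightest probe sets Aurka, a kinase of the spindle poles, was the 1 member without overlap, against 4.54% of probe sets lower in b/b. It had 381, 388 and 485 in +/b and 275, 304 and 333 in b/b rats. A dimmer Ccnd1 probe set was also lower without overlap, at 829, 589 and 587 against 525, 519 and 424. A dimmer Cdc20 probe set was higher in b/b rats without overlap, at 120, 118 and 67.5 in +/b against 251, 129 and 150.

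The helicase subunits were the next by p in the jejunum. Mcm5 had 405, 294 and 499 in +/b and 229, 209 and 307 in b/b rats (-0.64 ± 0.32), with 1 b/b array above the lowest +/b array. Mcm4 had 317, 342 and 528 against 178, 271 and 319, again with a single crossing (-0.60 ± 0.32). Mcm6 had 858, 516 and 977 against 455, 604 and 567 (-0.48 ± 0.31), with an overlap of 2 b/b arrays. In the duodenum these genes differed by -0.29, -0.18 and -0.41, and Mcm2 differed by -0.18 in the duodenum and -0.20 in the jejunum. None of these differences had an unadjusted limma p under 0.05.

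Top2a had duodenal signals of 1172, 340.1 and 1343 in +/b and 605, 294 and 453 in b/b rats, with the low +/b value that of the replicate high in pancreas genes (-0.89 ± 0.43). Mki67 differed by -0.47 ± 0.40 in the duodenum and by -0.36 in the jejunum, Cdk1 by -0.54 ± 0.43 and -0.18, and Ccnd1 by -0.43 ± 0.30 and -0.20. On the brightest probe sets the genotype groups overlapped in both segments for all of them. In the duodenum a dimmer probe set did not overlap for Top2a, with 516, 353 and 412 in +/b and 169, 156 and 233 in b/b rats. The second Ccnd1 probe set, at 1309, 967 and 1804 against 859, 736 and 774, did not overlap either, while the third did. A dimmer probe set of Ccne2, of Mad2l1 and of Cdc45 also lay lower in b/b duodenum without overlap, and the remaining dimmer probe sets overlapped. Of all probe sets, 5.53% lay lower in b/b duodenum without overlap. Single arrays moved the differences of the brightest probe sets widely. Without +/b duodenum replicate 2, the duodenal differences were -1.50 for Top2a, -1.22 for Cdk1 and -0.87 for Mki67, and without +/b duodenum replicate 1 that of Cdk1 was -0.10. Mki67 was at -0.20 in the duodenum without b/b replicate 1. In the jejunum it was at -0.73 without b/b replicate 3 and at -0.09 without b/b replicate 1. By role, the median duodenal differences were -0.68 for Mki67 and Top2a, -0.54 for 7 cyclin and Cdk1 genes, -0.27 for 11 kinase and checkpoint genes and -0.44 for 7 spindle genes. They were -0.35 for 8 licensing genes, -0.27 for 2 nucleotide genes and 0.29 for the 3 clamp genes. In the jejunum all 7 roles had medians below 0, from -0.47 to -0.12.

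**Figure D5:**
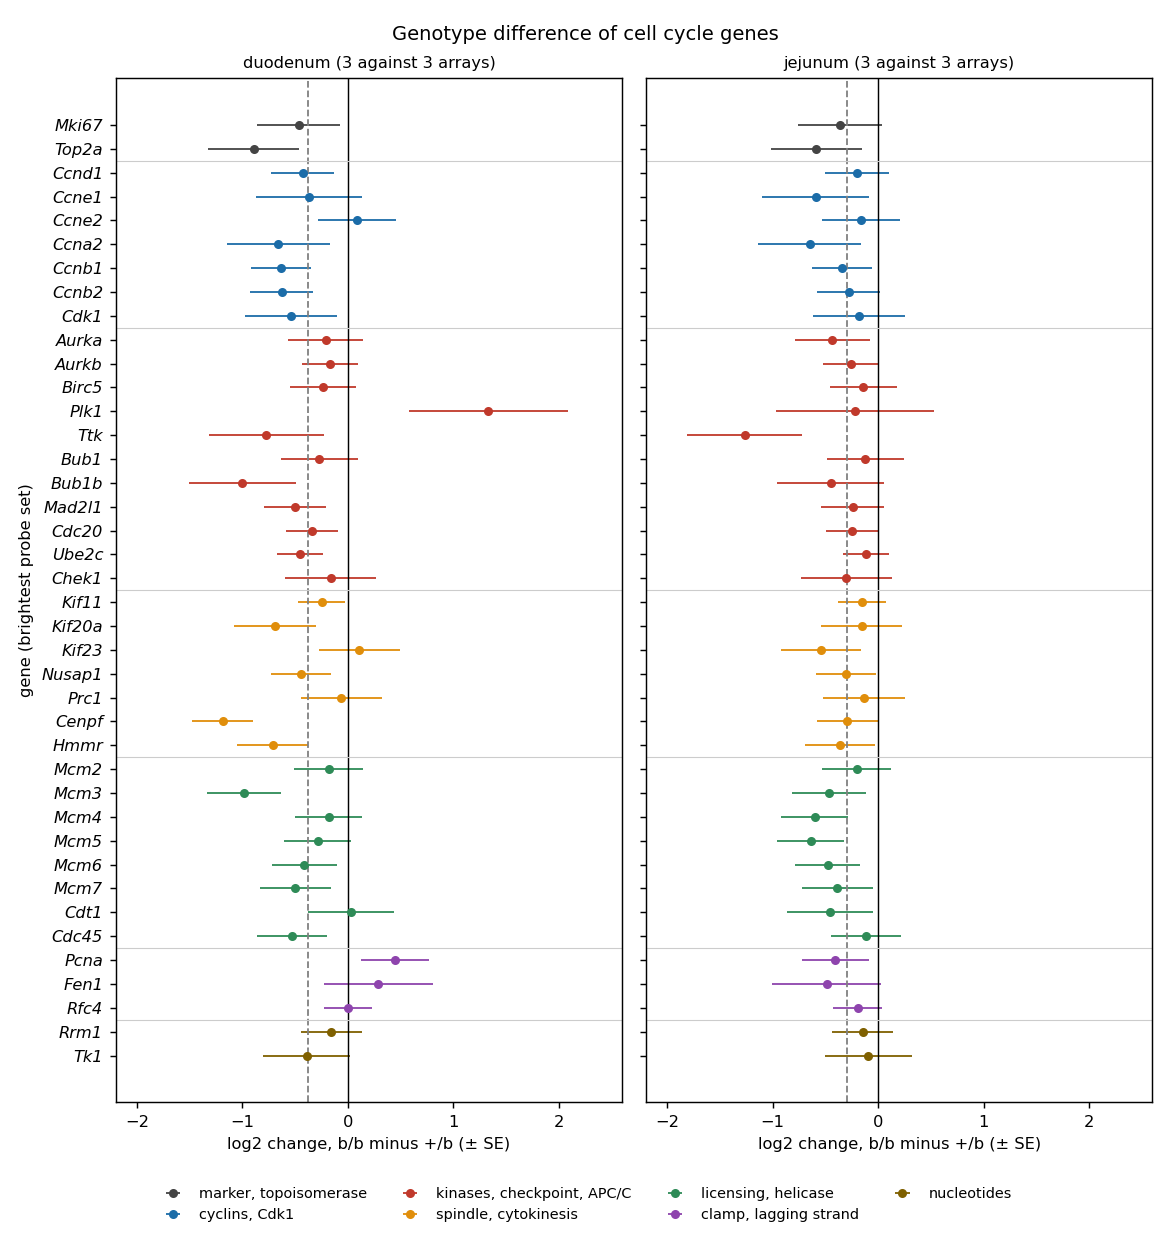
Log2 difference of b/b minus +/b with its SE for each measured gene in the duodenum (left) and the jejunum (right), with the members' median dashed at -0.38 and -0.30. In the duodenum 34 of 40 points lie below 0, with Cenpf the lowest at -1.19 and Plk1 the highest at 1.33, and in the jejunum all 40 do.

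Averaged over the segments, 38 of 40 members were below 0 in b/b rats, with a median of -0.32 beside -0.03 and 55.5% over all probe sets. At an unadjusted p under 0.05 there were 7 members (3.53% of probe sets), and 4 with the rat group as a random block. None was called by limma (0.0565% of probe sets in either direction, 0.0509% with the random block), and the lowest were Cenpf (-0.74 ± 0.20, adjusted p = 0.89), Mcm3 (-0.73 ± 0.25), Ttk (-1.02 ± 0.39) and Ccnb1 (-0.49 ± 0.20). In same-numbered comparisons, which pair no rats across genotypes, 7 members were lower in b/b in 6 of 6: Ccnb1, Ccnb2, Ttk, Cdc20, Cenpf, Hmmr and Mcm3, against 3.96% of probe sets. The members' mean same-numbered difference was -0.52, -0.23 and -0.26 between duodenal arrays and -0.54, -0.06 and -0.43 between jejunal ones. Number 2 gave the smallest difference in each segment.

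Without both unscaled arrays the members' median genotype difference in the duodenum was -0.61, with 38 of 40 below 0. That fit leaves 1 +/b duodenal array, replicate 1, which had the highest member average of its group (0.25 against -0.44 and -0.13). A median further below 0 follows from that array, so the fit is no independent check of the direction. Among fits that left out a single array, the median came nearest to 0, at -0.18, without +/b duodenum replicate 1, and in the jejunum, at -0.14, without +/b replicate 3. If the unscaled arrays were used as deposited, the duodenal median would be 1.17 and no member would lie below 0, so with these arrays in the fit the direction holds only after scaling.

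Pcna, the clamp that holds DNA polymerase on its template, went against most members in the duodenum. Its signals there were 3895, 2999 and 4241 in +/b and 2794, 6618 and 6791 in b/b rats, with 2 of the 3 b/b arrays above all +/b arrays and the third below them. In the jejunum they were 3816, 3364 and 4817 in +/b and 2183, 3057 and 3976 in b/b rats, which overlapped. The genotype differences were 0.45 ± 0.32 and -0.40 ± 0.32, and their difference was -0.85 ± 0.45 (limma unadjusted p = 0.081, and 0.0023 with the rat group block, where the adjusted p was 0.965 and 0.0113% of probe sets were called). Every b/b group of rats had less Pcna signal in the jejunum than in the duodenum (-0.74 ± 0.32), while +/b groups differed little (0.11). Plk1 was the member furthest above 0 in the duodenum (1.33 ± 0.75), with the 4.61 of +/b replicate 3 as its lowest value. Fen1, which trims Okazaki fragments, had its lowest value of 42.9 on the same array, beside 262 and 174, and a duodenal difference of 0.29.

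The dimmer probe sets gave a second reading of 11 members. All 15 had a higher mean in the jejunum over both genotypes (median 0.54), 14 of 15 were below 0 for the genotype in the duodenum (median -0.57) and 13 of 15 in the jejunum (median -0.32). They share RNA and arrays with the brightest ones and are no replicates. Ccne2, cyclin E2, was the clearest disagreement: its brightest probe set differed by 0.09 between duodenal genotypes and the dimmer one by -1.39. Tk1, thymidine kinase, was above 0 in the duodenum on its dimmer probe set (0.29), and Cdc20 was above 0 in the jejunum on its dimmest (0.69). The second Top2a probe set gave -1.14 in the duodenum, where the first gave -0.89.

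Other genes of the same processes, outside the members, were read from lists of 49 replication genes (38 measured), 77 mitosis genes (57 measured) and 41 genes of G1 control, E2F factors and inhibitors (35 measured). Over both genotypes the jejunum was higher for 34 of 38 replication genes (median 0.37), 55 of 57 mitosis genes (0.61) and 26 of 35 G1 genes (0.32). The calls, all higher, were Prim1 of the DNA primase (0.72 ± 0.15, limma adjusted p = 0.0333), Cks2, a subunit that binds cyclin-dependent kinases (0.86 ± 0.18, 0.0277), and Cdca7 (0.88 ± 0.19, 0.034). None was in the G1 list, and 0.61% of probe sets were called higher (1.4% in either direction). With the rat group block the counts were 3, 12 and 5 (2.31% of probe sets called higher), and Dut, which clears dUTP (0.84 ± 0.22), Dnmt1, which copies DNA methylation (0.89 ± 0.26), and Spc25 of the kinetochore (0.73 ± 0.18) were among them. Between the genotypes 34 of 38, 51 of 57 and 23 of 35 were below 0 in b/b over both segments, with medians of -0.20, -0.42 and -0.15. No gene of these lists was called for it (limma, with 0.0565% of probe sets called in either direction). At an unadjusted p under 0.05 there were 4 replication, 11 mitosis and 3 G1 genes lower (3.53% of probe sets) and 1 G1 gene higher in b/b, and the lowest adjusted p was that of Cdca7 (-0.87 ± 0.19, 0.41). The next by p were Spc25 (-0.74), Zwilch (-0.87), also of the kinetochore, and Dnmt1 (-0.87 ± 0.26).

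Markers of crypt stem and progenitor cells lay beside the members in both comparisons. Of 17 such genes 11 were measured, and none was listed at 0. All 11 were below 0 in b/b rats over both segments (55.5% of probe sets), none was called by limma and 5 had an unadjusted p under 0.05 (3.53%). In the jejunum 10 of 11 were above 0 (59.8%) and 1 was called (0.61%). Their summed signal was 4809 to 9497 in +/b duodenum, 3880 to 5472 in b/b duodenum, 7780 to 11677 in +/b jejunum and 6035 to 7664 in b/b jejunum. Ascl2, a transcription factor of crypt stem cells, had 184, 109 and 137 in +/b and 26.2, 24.0 and 58.9 in b/b duodenum, which did not overlap (-1.64 ± 0.42). Slc12a2, a chloride cotransporter of crypt cells, had 3900, 1714 and 2692 against 1261, 1094 and 1475 (-1.04 ± 0.28), also without overlap, and was called higher in the jejunum (0.94 ± 0.20, limma adjusted p = 0.0278). Lgr5, a stem cell receptor, differed by -0.96 ± 0.67 in the duodenum. Olfm4 and Sis were not among the named probe sets and have no value. The part of crypt content in the members' differences was not tested.

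Markers of other cell types that a scrape can hold were read in the same way. Villus enterocyte genes (14 of 18 measured) had median genotype differences of -0.26 in the duodenum and 0.06 in the jejunum, and Fabp1, a fatty acid carrier of enterocytes, was between 30742 and 145043 on every array. Lymphocyte genes (10 of 15) differed by -0.03 and -0.16, and germinal centre genes (4 of 7) by 0.16 and -0.27. Smooth muscle genes (9 of 10) differed by -0.35 and -0.08, goblet cell genes (8 of 8) by -0.14 and 0.01, and exocrine pancreas genes (15 of 21) by -1.04 and 0.02. Between the segments, over both genotypes, the medians were -0.18 for villus, 0.26 for lymphocyte, -0.13 for germinal centre, 0.23 for smooth muscle and -0.05 for goblet cell genes, with none called. Erythroid genes (4 of 11) summed to 2108 to 3757 on +/b arrays and to 10304 to 18008 on b/b arrays. These sums did not overlap and were opposite in sign to most members. Over both segments 2 of the 4 were called higher in b/b (0.0565% of probe sets called in either direction). The list did not rise as a whole: in the jejunum Hbb and Alas2 differed by 2.37 and 2.63, Slc4a1 by -0.61 and Gypc by 0.07. Paneth cell genes (6 of 8), of the crypt base, summed to 8123 to 24697 in the duodenum and 23239 to 74745 in the jejunum. Over both genotypes 4 were called higher in the jejunum, against 0.61% of probe sets (1.4% in either direction). The median genotype difference of the 6 Paneth cell genes was -0.47 in the duodenum and -0.31 in the jejunum, of the same sign as that of the members. None of these markers was listed at 0, and their part in the members' differences was not tested.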

How the data were processed

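The deposited values were linear signal intensity per probe set of an Affymetrix rat array, made by the authors with MAS5, per the submitters' processing notes on all arrays but b/b jejunum replicates 2 and 3. RNA was isolated in Trizol, cleaned on a column and biotin-labelled, per the labels' protocols. The MAS5 version is not given in the sources used here. The number of arrays, 3 per group, limits the precision.

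From these values, each array was scaled to a 2% trimmed mean of 500, and 57 control probe sets were left out of the 31099. Of the rest, 20826 had 1 gene in the platform annotation, 436 had several and 9780 had none, and all 44 member symbols were in the RefSeq gene table. Probe sets with a mean of at least 100 were tested on log2(signal + 16), which understates changes of dim genes. limma 3.58.1 (R 4.3.3, lmFit and eBayes with trend) fitted 4 group means to all 12 arrays, with 8 residual degrees of freedom, and two-sided p-values were adjusted by Benjamini-Hochberg over 17694 probe sets at 0.05. The fit was tested on simulated data. Values are differences on the log2(signal + 16) scale ± SE, and nothing in the labels says whether rats of a group share a litter or day.

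The members and all lists were chosen with earlier results of these data known. Array values were planned for 8 members whatever their result, of which Rrm2 has none, and for the 4 of smallest p in each genotype and segment contrast. Up to 3 genes per pathway list and contrast and 6 markers were to be named, and of these Olfm4 and Sis have no value. Aurka, Fen1, Ccna2, the dimmer probe sets and members named in counts were picked with their values known.

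The series design states that each group of rats gave both segments, and equal numbers were taken as the same group. Deviations of same-numbered duodenum and jejunum arrays correlated at 0.19 to 0.28 in +/b and 0.16 to 0.38 in b/b rats. Those of the jejunum arrays of both genotypes, which share no rats, correlated as highly (0.12 to 0.42), and those of the duodenum at -0.06 to 0.16, so the correlations do not identify shared rats. Alternatives covered pseudocount, filter, normalization, trend, array weights, doubted arrays, blocks, leaving out each array, and the mean of a gene's probe sets.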

Additional observations from a re-analysis of the deposited data

How the results depend on the processing

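With 3 arrays per group, only large differences can pass, and no genotype call on a member was made under the settings that rescale the arrays. Of the alternatives other than leaving out an array, 609 of the tested results kept their side of the threshold and their direction, 40 passed newly, 3 lost their call and 16 reversed. The reversals below come mostly from using the arrays as deposited.

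Without rescaling, 1 member was called in the duodenum between genotypes (2.07% of probe sets), the members' median was 1.17 and 0 lay below 0. Cenpf was then at 0.34, Mcm3 at 0.49, Ccnb1 at 0.93, Hmmr at 0.66, Mki67 at 1.18, Top2a at 0.69, Cdk1 at 0.86, Ccnd1 at 1.25 and Mcm2 at 1.20. Over both segments the genotype median was 0.43 with 2 below 0, Cenpf at 0.026, Mcm3 at 0.015 and Ccnb1 at 0.30. The segment difference of +/b rats had 36 calls (49% of probe sets), a median of 2.01 and Ccnd1 at 1.57, and over both genotypes 3 calls (1.06%) and a median of 1.27. The difference of the genotype effects had a median of -1.46, with 0 members above 0. These follow from 2 arrays on a lower scale.

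Array weights gave 10 calls in the b/b segment difference (3.63% of probe sets) and 6 over both genotypes (3.36%). Without both unscaled arrays there were 0 calls over both genotypes (0.75%), and Top2a in +/b rats was at -0.048. Without the 2 arrays highest in pancreas genes, the b/b segment difference had 1 call (0.368%), Top2a in +/b rats was at -0.14 and Pcna at -0.039.

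The rat group as a fixed block, which uses the pairing, gave 3 calls in b/b rats (2.44%) and 8 over both genotypes (4.49%), and as a random block 2 (1.98%) and 7 (4.02%). The replicate number as a block across genotypes gave 0 calls in each segment.

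When each array was left out in turn, the genotype median ran from -0.54 to -0.18 in the duodenum (30 to 36 below 0), from -0.43 to -0.14 in the jejunum (30 to 40) and from -0.40 to -0.25 over both (36 to 39). The segment median ran from 0.30 to 0.69 in +/b rats (35 to 39 above 0), from 0.37 to 0.68 in b/b rats (33 to 39, with 0 to 2 calls) and from 0.46 to 0.65 over both (36 to 38, 0 to 2 calls). That of the difference of genotype effects ran from -0.10 to 0.28 (16 to 28 above 0). Some small differences changed sign in these fits: Mcm2 in the duodenum ran from -0.47 to 0.095, and between jejunal genotypes Cdk1 ran from -0.29 to 0.024 and Ccnd1 from -0.43 to 0.094. Between the segments of +/b rats Top2a ran from -0.14 to 0.82, Pcna from -0.039 to 0.22 and Ccnd1 from -0.40 to 0.11, and in b/b rats Ccnd1 ran from -0.10 to 0.32.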
